A study of Canis lupus familiaris with 109 samples.

Results

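Variant-like positions are cytosine positions whose methylation fraction fell into 3 separate classes across dogs, as the fraction would at a CpG whose cytosine is present on both, one or neither copy of a chromosome. They were chosen by their own values: at least 8 libraries under 0.12 (low class), at least 8 between 0.3 and 0.7 (middle class), at least 8 over 0.88 (high class), and at most 12 libraries in the gaps between these classes. Of 304191 positions listed for 95 libraries, 269 met this rule, or 8.84 in 10000. The 3 classes are therefore the choice and not a finding, and the class frequencies below are descriptions without a test. The label could not be checked against genotypes or against the reference sequence, which were not used here, and what makes the 3 classes at any 1 position was not tested.

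Whole-blood DNA of dogs was measured by bisulfite sequencing after capture of chosen regions with the Roche SeqCap Epi protocol. The labels put 94 samples, from dogs aged 0.134 to 14.5 years, in the table used here, and they put 6 repeat captures and 1 first capture in a second one, from dogs aged 0.384 to 15.5 years. The main table holds 95 libraries and the repeat table has 7 libraries, and the codes of their rows match no label, so all dogs are described together, without groups by age or sex. Positions are the first coordinate listed on the CanFam3.1 dog assembly, which may be off by 1 bp, and gene annotation of that assembly was not used here.

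Methylation of DNA in mammals is found almost wholly at CpG, a cytosine followed by a guanine, and the same dinucleotide stands on the opposite strand 1 base away. Bisulfite turns unmethylated cytosine into a base read as thymine and leaves methylated cytosine as it is. A cytosine-to-thymine variant is read in the same way as a missing methyl group, and a variant at the guanine takes away the CpG, so genetic variants can enter a table of methylation fractions. Variants near one another on a chromosome are inherited together more often than variants far apart, which is called linkage, and in breeds of dogs such stretches are known to be long. A variant can also move with the methylation of other CpGs on the same copy of the chromosome, which is called allele-specific methylation.

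A set of 14 libraries stood apart at these positions. They had 21.9% to 36.1% of the 269 positions between the classes, while the other 81 libraries had at most 17.8%, with a median of 4.83%. Their values often lay in the gaps: 14.5% of their cells at the members were from 0.12 to 0.3 and 15.6% from 0.7 to 0.88, against 1.78% and 4.22% in the other 81. Both the members and the 14 libraries were chosen on these values, so this is a description. Without the 14 libraries 455 positions met the rule, of which 256 were among the 269. The 14 libraries carried 6 of the 10 code prefixes, which held 53 libraries in all. They also differed elsewhere: 10 of the 14 had no filled-in cell while each of the other 81 had some, and at positions with a median under 0.05 they had a median of 6366 values of exactly 1.0 against 419. The number of members, the middle share, the linkage of members within 100 bp and of the pairs with the largest values, and the related neighbours were computed again without them. Other results below were not, and the source of their values was not tested.

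**Figure D1:**
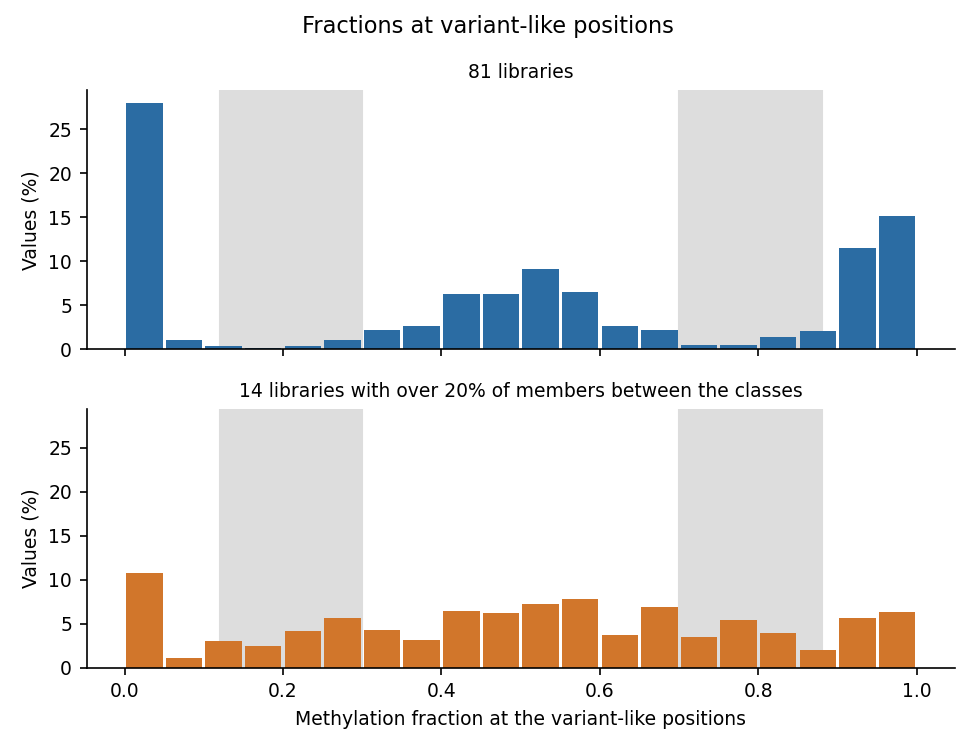
Share of values (%) in steps of 0.05 of the methylation fraction at the 269 variant-like positions, in the 81 other libraries (upper) and in the 14 libraries that stood apart (lower); grey bands mark the gaps of the rule. The 81 libraries have peaks near 0, 0.5 and above 0.9, and the 14 have values throughout the grey bands.

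Over all 25555 values at the members, 26.8% were in the low class, 38.6% in the middle class, 25% in the high class and 9.54% in the gaps. A member had a median of 22 low libraries (range 8 to 74), 37 middle libraries (9 to 52), 21 high libraries (8 to 59) and 9 in the gaps (1 to 12). The middle class was the largest at 166 members, the low class at 58 and the high class at 45. Within the classes the levels lay close to 0, 0.5 and 1: the median of the middle class was 0.5 over members (0.38 to 0.615), and that of the high class 0.96 (0.91 to 1). Of the 6847 low values, 87.3% were exactly 0. The values just inside and outside the limits were alike in kind: 54 columns had exactly 12 libraries in the gaps and entered, with a median of 38 middle libraries, and 48 columns had exactly 13 and did not, with a median of 37. Likewise 24 members had exactly 8 libraries in the smallest class, and 30 columns with 7 stayed outside.

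When each library is read as 2 copies, the share of copies of the high type, q, had a median of 50% over members, and ranged from 15.6% to 78.7%. In a randomly mating population the middle class would hold 2q(1-q) of the animals, the Hardy-Weinberg proportion. The middle class held a median of 43.5% of classed libraries (9.68% to 61.2%), and 2q(1-q) had a median of 47.6%. The observed share lay below that proportion at 186 members and above it at 83, with a median difference of -3.35 percentage points (-26.7 to 11.4). The rule's minimum of 8 libraries per class bounds both shares, and libraries in the gaps were left out of them. Without the 14 libraries the median difference was -5.53 percentage points, with 223 members below.

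The largest deficit was at chromosome 18, position 37812638, with 62 low, 9 middle and 17 high libraries, a difference of -26.7 percentage points from 2q(1-q). All 17 of its high values were exactly 1.0. A share of 80% or more of exact 1.0 in the high class was found at 5 members, and 4 of them had the fewest middle libraries of all, from 9 to 11. The other 3 of those were chromosome 6 at 21829404 (74 low, 9 middle, 10 high), chromosome 3 at 15906187 (67, 10 and 11) and chromosome 5 at 62924993 (71, 11 and 10). Over all members a median of 34.1% of the high values were exactly 1.0. These 4 positions fit the rule by count, yet their high class is almost entirely a single value that the table also gives at positions otherwise unmethylated. At the opposite end, chromosome 34 at 36995868 had 19 low, 52 middle and 14 high libraries, 11.4 percentage points above the proportion.

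**Figure D2:**
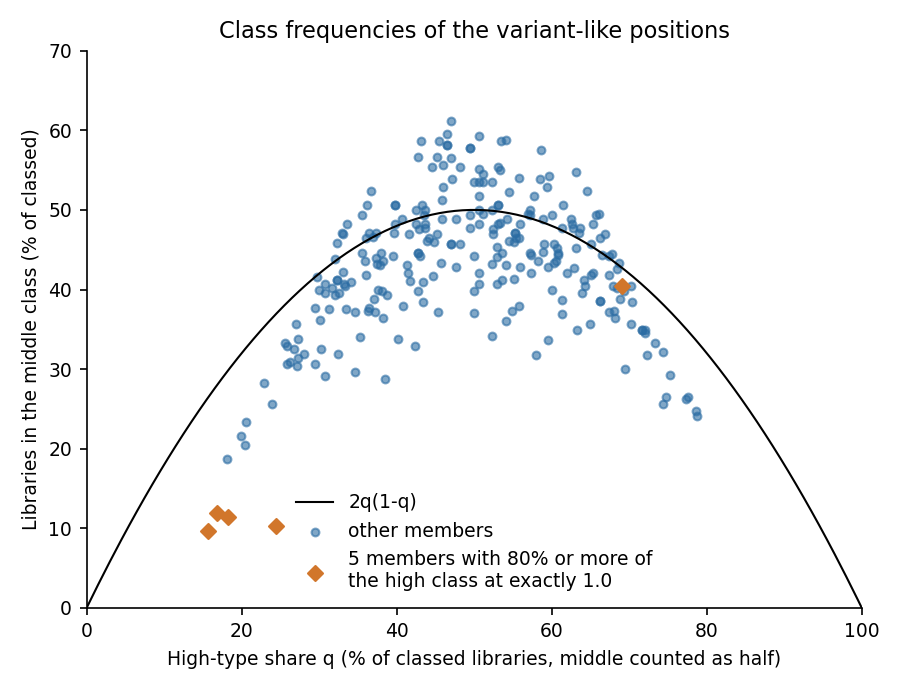
Share of classed libraries in the middle class (%) against the high-type share q (%), 1 point per member, with the curve 2q(1-q); diamonds are the 5 members with 80% or more of the high class at exactly 1.0. Most points lie under the curve, and 4 of the 5 diamonds lie farther below it than the points around them.

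The repeat table gives the same positions in libraries that did not enter the rule. It lists 235 of the 269 members. Over its 7 libraries, 3.40% to 10.2% of these members were between the classes, 29.4% to 41.3% were in the middle class, 20.9% to 33.6% in the low class and 22.6% to 35.7% in the high class. For 6 repeat captures there was a first library whose code carries the same number. Members were in the same class in both captures in 1243 of 1255 comparisons, or 99.0%, and by pair from 96.3% to 100%. Against libraries of other numbers the agreement was 25.7% to 72.8% over 570 pairs of libraries, with a median of 38.1%. Values in the gaps in either capture were left out of these counts. With each value put to the nearest of 0, 0.5 and 1, the agreement of the 6 numbered pairs was 94.5% to 99.6%. Where both captures gave a class, it was thus nearly always the same on the second capture of the same number. Opposite classes occurred 9 times, of which 7 were in 1 pair. Of 118 values of exactly 1.0 at members in the first libraries, 106 were over 0.88 in the repeat and 6 were under 0.12, all 6 in that pair.

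Each CpG can be read on both strands, and the repeat table lists the partner strand of 219 members. Within the 7 libraries the correlation between the strands across members was 0.835 to 0.921. Of 1190 cells with a class on both strands, 1103 (92.7%) had the same class. The classes differed in how well they were shared when partners between the classes are counted too. Where the member was low the partner was low in 400 of 408 cells and between the classes in 4. Where the member was high the partner was high in 344 of 442, between the classes in 88, in the middle in 6 and low in 4. Where the member was in the middle the partner was in the middle in 359 of 543, between the classes in 111, high in 43 and low in 30. Most high members without a high partner thus had it between the classes. A middle member had its partner in the middle class in every middle library at 61 of 171 members with at least 2 such libraries. The opposite case, a partner under 0.12 in every middle library, was met at 1 member, chromosome 38 at 15544594, where 3 libraries read 0.5 to 0.59 and the next base read 0 in all 3. No partner was over 0.88 in every middle library of a member.

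The members were spread over all 38 autosomes, from 1 each on chromosomes 11, 19 and 29 to 19 on chromosome 5, 17 on chromosome 9 and 16 on chromosome 6. Per 10000 listed positions they ranged from 1.59 on chromosome 11 to 21.5 on chromosome 38. The next member on the chromosome was a median of 3.29 Mb away, with a range from 1 bp to 42.1 Mb. Only 12 of 231 such steps were 1 kb or shorter, and 8 of these were 1 bp. In all, 247 members stood alone within 1 kb and 22 lay in 10 runs.

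Members were most frequent where few positions are listed. Positions with no other listed position within 100 bp held 23.8 members in 10000 (45 of 18945), and those with 2 or 3 listed positions, themselves included, held 17.3 in 10000. The rate was 12 in 10000 at 4 to 7 positions, 3.53 at 8 to 15, 0.544 at 16 to 31 and 0 of 9888 at 32 or more. The level of methylation changes along the same axis, and a high class needs methylated DNA: the share of listed positions with a median over 0.8 was 58.9% for lone positions and 0.324% for the densest. Around 199 of the 224 members with a listed non-member within 100 bp, the surrounding level (median of medians) was over 0.8, or 88.8%, while 32.8% of all listed positions had a median over 0.8. The first share describes surroundings and the second single positions at all densities. At 2 or 3 and at 4 to 7 listed positions, where most members lay, the second share was 58.4% and 46.8%. The part of level and of density in the number of members was not separated.

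Members within 100 bp of each other were closely linked. The 15 such pairs had squared correlations (r2) over the 95 libraries of 0.670 to 0.964, with a median of 0.878, and the same class in 88.9% to 100% of the libraries classed at both. Members on different chromosomes had a median r2 of 0.00840 over 34886 pairs, and a median class agreement of 35.6%. The 8 pairs at 1 bp had a median r2 of 0.847 and the 7 pairs at 2 to 100 bp one of 0.891, and the ranges, 0.736 to 0.924 and 0.670 to 0.964, overlapped; pairs at 1 bp can be the strands of 1 CpG. The longest run was on chromosome 24 and had 4 members, at 19685470, 19685471, 19685518 and 19685519, or 2 adjacent pairs 49 bp apart in all. Its 6 pairs had r2 from 0.846 to 0.964, and the inner pair 19685471 and 19685518 shared its class in 80 of 80 libraries. Its pairs at 47 to 49 bp were counted separately among the 7 at 2 to 100 bp, although they belong to 1 place, so those 7 pairs are not separate places. The other 9 runs had 2 members each. The lowest r2 among them was 0.670, on chromosome 35 at 11907840 and 11907869, and the highest 0.924, on chromosome 8 at 70402336 and 70402337.

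Linkage fell with distance over a range of megabases. The median r2 was 0.285 for the 8 pairs from 10 to 100 kb, 0.144 for 64 pairs from 100 to 1000 kb, 0.0623 for 38 pairs from 1 to 2 Mb, 0.0213 for 129 pairs from 2 to 5 Mb and 0.0140 for 164 pairs from 5 to 10 Mb. Beyond 10 Mb it was 0.00847 over 741 pairs, about the level between chromosomes. An r2 over 0.3 was met by 37 of 1160 pairs on the same chromosome (3.19%) and by 0 of 34886 pairs on different chromosomes (0%), whose highest value was 0.293. Of the 37 pairs, 22 were more than 1 kb apart and 4 more than 1 Mb. Pairs of members share the 95 libraries, so these values describe the libraries and carry no test.

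**Figure D3:**
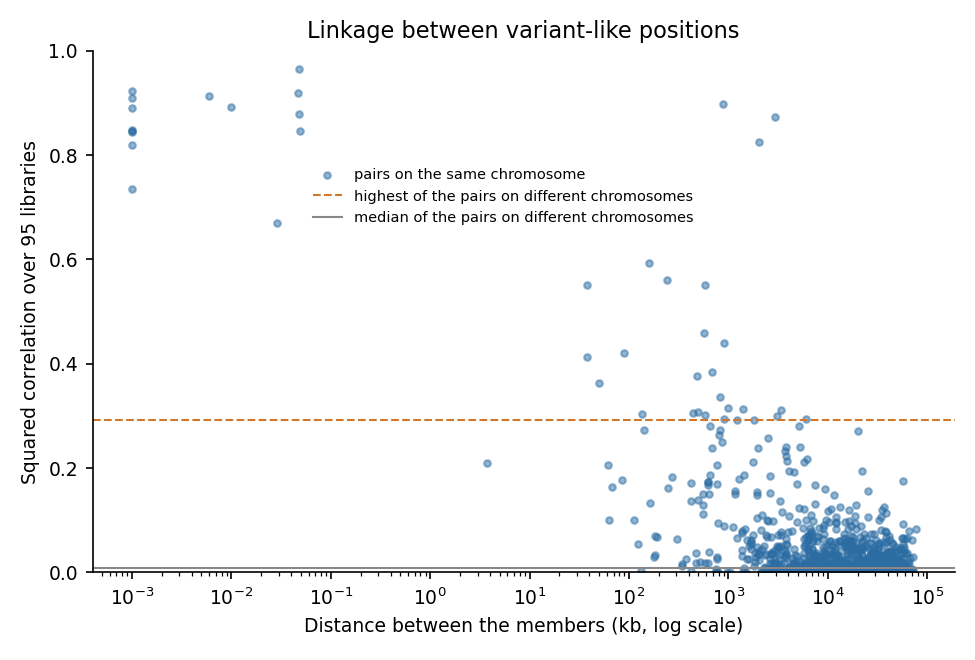
Squared correlation of the fractions over 95 libraries for each pair of members on the same chromosome, against their distance in kb on a log scale; the lines give the median and the highest value of the pairs on different chromosomes. Pairs within 0.1 kb lie between 0.670 and 0.964, and 3 pairs near and beyond 1000 kb lie above 0.8.

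Beyond 1 kb, r2 over 0.8 was found only on chromosome 9. The members at 12557499 and 13439003, 881504 bp apart, had r2 0.898 and the same class in 76 of 77 libraries. The member at 15471560, named here after its values were seen, had r2 0.874 and 0.826 with them, at 2914061 and 2032557 bp. There were 385 listed positions between the outer ones and no other member. Without the 14 libraries the 3 values were 0.902, 0.868 and 0.823, and with the mean of each second code element taken out 0.896, 0.882 and 0.859. Near the start of chromosome 12, also looked at after the values were seen, 7 members between 826794 and 2865843 had a median r2 of 0.239 over 21 pairs, with 8 pairs over 0.3.

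The direction of linkage went both ways. Among the 22 pairs over 1 kb apart, 16 moved together and 6 in opposite directions; the high type at one position can stand on the same copy as either type at the other. The strongest opposite pair was on chromosome 6 at 17505056 and 18068519, with r -0.68 at 563463 bp. The strongest pair moving together outside chromosome 9 was on chromosome 35 at 24250224 and 24407401, with r 0.77 at 157177 bp.

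Positions near a member that did not themselves meet the rule were then tested against it. The rule chose a member by its own values and not by those of the neighbour, except that a close neighbour can be the other strand of the same CpG. Nearby positions that met the rule on their own values were members and were left out. The shares below are therefore over positions that failed it. Within 1 kb there were 1418 pairs of a member and a listed non-member, for 246 of the 269 members, and the other 23 had no such neighbour. Each pair was tested by Pearson's r over the 95 libraries, with a two-sided permutation test of 100000 permutations and Benjamini-Hochberg adjustment over the 1418. An adjusted p under 0.05 was reached by 111 pairs (7.83%) of 77 members: 88 with a positive r (6.21%), where the neighbour was higher in libraries high at the member, and 23 with a negative r (1.62%). The smallest size of r among them was 0.29. A correlation of that size or more was found for 0.49% of 78878269 pairs of a member and a listed position on another chromosome. Because the members fall into classes, r compares the classes as well as the values within them, and the neighbour's values by class are given for the pairs named.

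All 12 neighbours at 1 bp, where the partner strand would be, passed the test, with r from 0.82 to 0.96. For 9 of the 12 the neighbour's values in the low-class and high-class libraries of the member did not overlap. Within the middle class alone the r at 1 bp had a median of 0.22 (-0.15 to 0.37). The share past the same size of r was 11.2% of 492 pairs at 2 to 50 bp, 3.54% of the 311 farther out to 100 bp, 7.32% of the 205 beyond these to 200 bp, 4.98% of the 221 beyond these to 500 bp and 3.95% of the 177 out to 1 kb. From 1 to 5 kb it was 1.62% of 1667 pairs. It was higher again from 5 to 50 kb, 2.80% of 7069 pairs, then 1.78% to 500 kb, 1.04% to 5 Mb and 0.529% beyond 5 Mb on the same chromosome. The last value is near the 0.49% of other chromosomes.

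**Figure D4:**
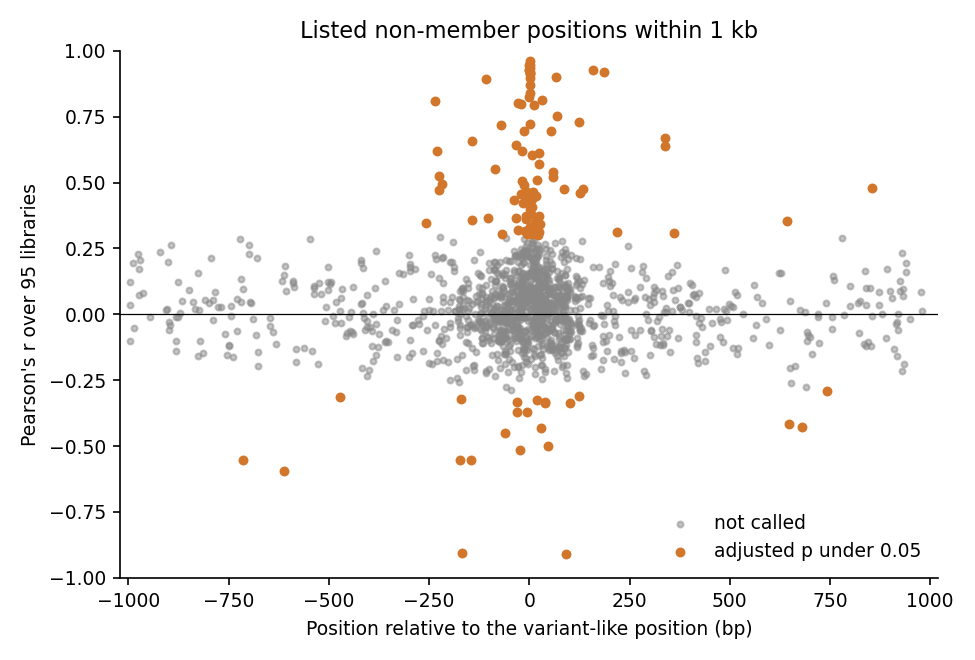
Pearson's r over 95 libraries for the 1418 pairs of a member and a listed non-member within 1 kb, against the neighbour's position relative to the member in bp; orange points have an adjusted p under 0.05. The 12 neighbours at 1 bp lie at 0.82 or more, and the other passing pairs are spread to both sides and both signs.

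Beyond 1 bp, 99 of 1406 neighbours (7.04%) of 70 members passed, 76 with a positive and 23 with a negative r. Most of these moved little. The slope, the change of the neighbour's fraction from 0 to 1 at the member, had a median size of 0.165. It was over 0.5 for 22 neighbours, from 0.2 to 0.5 for 21 and under 0.2 for 56. Of the 99, 60 had a median over 0.8 over the 95 libraries, 29 from 0.1 to 0.8 and 10 under 0.1. Neighbours at intermediate levels passed most often, 19.6% of 148, against 5.09% of 1178 with a median over 0.8 and 12.5% of 80 with a median under 0.1. The median and r come from the same 95 libraries. A neighbour that follows the 3 classes of a member can have an intermediate median for that reason alone, so these shares are a description. At 21 of the 99 the neighbour itself had 5 or more libraries in each of the 3 classes. This count sets no limit on libraries in the gaps, and some of the 21 were far over the limit of 12, such as chromosome 27 at 19970098 with 6 low, 33 middle and 23 high libraries.

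The largest correlations beyond 100 bp belonged to neighbours that moved almost as far as the member itself. The neighbour at 187 bp on chromosome 28 had 9 low, 32 middle and 30 high libraries itself. The one on chromosome 31 had 16, 48 and 16. Both met the rule's minimum in each class and stayed outside by its limit on the gaps. On chromosome 17 it had 7, 35 and 34, under the minimum in the low class. Those on chromosome 1 (20, 40, 4) and at 234 bp on chromosome 28 (37, 33, 4) were under it in the high class. What makes these classes was not tested. On chromosome 1 the position 160 bp after 103255648 had a median of 0 in the 20 low-class libraries (0 to 0.14), 0.43 in the 40 middle ones (0.19 to 0.57) and 0.79 in the 24 high ones (0.03 to 0.92). The low and middle libraries did not overlap, and 1 high library fell into the low range. It read exactly 1.0 at the member and 0.03 at the neighbour, and the next lowest high library was at 0.7. Its r was 0.93 (rho 0.88, both with permutation p 1e-05, adjusted 0.00023), and the slope 0.849 ± 0.0353 (SE, n = 95).

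On chromosome 28 the position 187 bp after 38491744 was at a median of 0 (0 to 0.41) in low, 0.46 (0.23 to 0.83) in middle and 0.9 (0.76 to 1) in high libraries. Low and high libraries did not overlap there, and r was 0.92 (rho 0.85). On chromosome 31 the position 109 bp before 36640860 was at 0 (0 to 0.66), 0.55 (0 to 0.78) and 0.96 (0.8 to 1), with r 0.89 (rho 0.80). The high libraries there overlapped neither other class, while the low and middle ones overlapped. Also on chromosome 28, the position 234 bp before 38429580 was at 0 (0 to 1), 0.43 (0 to 0.87) and 0.84 (0.5 to 0.9), with r 0.81 (rho 0.81). There the ranges of all 3 classes overlapped.

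One of the 5 moved the other way. On chromosome 17 the position 168 bp before 37974732 was at 0.92 (0.8 to 1) where the member was low, 0.5 (0.25 to 0.94) where it was in the middle and 0.015 (0 to 0.58) where it was high. The low and high libraries did not overlap, and r was -0.90 (rho -0.84), with a slope of -0.843 ± 0.0412 (SE, n = 95). A comparable mirror was seen on chromosome 13, where the position 92 bp after 46003562 fell from 0.95 in low to 0.5 in middle and 0 in high libraries by its medians (r -0.91).

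For all 5 named pairs both p-values were 1e-05, the smallest the permutations can give, and the adjusted p 0.00023 for each. Leaving out the 2 libraries farthest from the member's median gave r 0.92, 0.92, 0.89, 0.80 and -0.92 in the order told, the chromosome 17 pair last. Within the 10 code prefixes, each with 8 to 11 libraries, the sign was the same in each prefix: r ran from 0.59 to 0.99 for the chromosome 1 pair, from 0.47 to 0.99 and from 0.53 to 0.98 for the chromosome 28 pairs at 187 and 234 bp, from 0.66 to 0.98 for chromosome 31 and from -0.996 to -0.68 for chromosome 17. Inside the middle class r was 0.48 over 40 libraries for the chromosome 1 pair, and -0.23 to 0.18 for the other 4. Over all 22 related neighbours beyond 1 bp with a slope size over 0.5, r inside the middle class had a median of 0.41 and ran from -0.71 to 0.84. The narrower range of the member's values inside a class lowers r by itself.

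**Figure D5:**
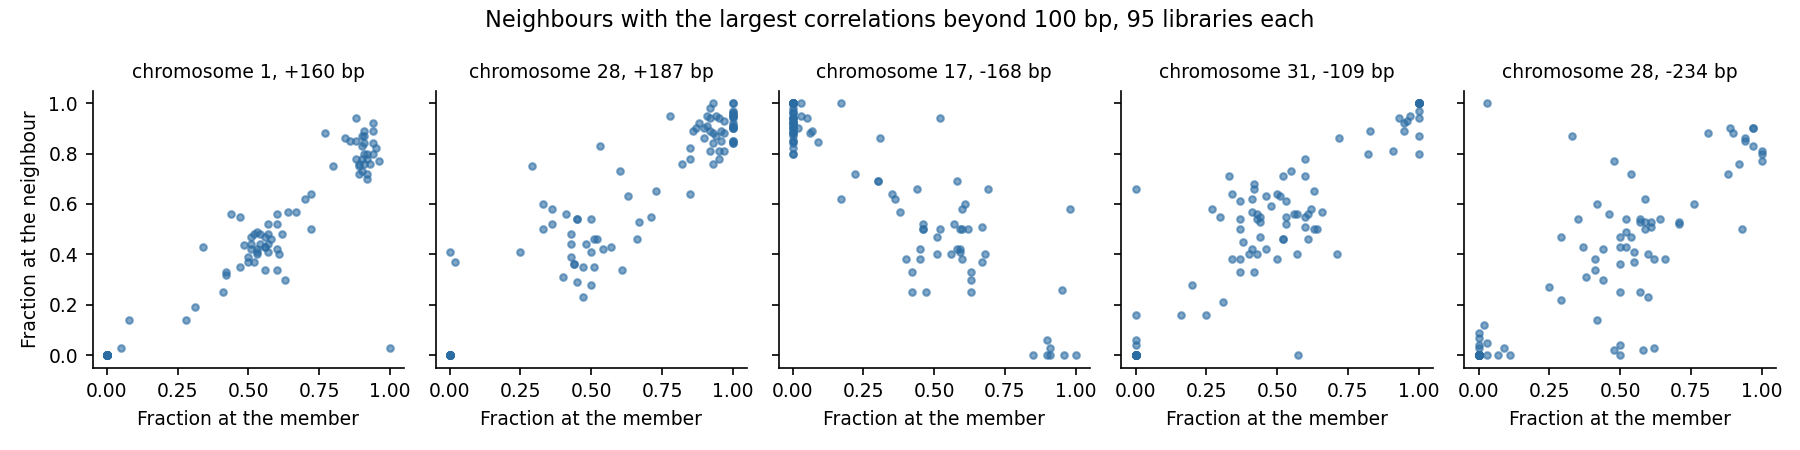
Fraction at the neighbour against the fraction at the member, 1 point per library (95 each), for the 5 members with the largest correlations beyond 100 bp; titles give the chromosome and the neighbour's distance from the member. Points gather near both ends and the centre, along a rising line in 4 panels and a falling line for chromosome 17.

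Some members had many related neighbours. On chromosome 15, the member at 14870741 (61 low, 21 middle and 8 high libraries) had 7 of its 19 neighbours related to it, from 70 bp before to 58 bp after, all with a positive r. Of its 8 high values 4 were exactly 1.0, and the surrounding level within 100 bp (median of medians) was 0. At 29 bp before it, the medians were 0 in low, 0.45 in middle and 0.93 in high libraries (r 0.80), and at 21 bp before it 0, 0.5 and 0.9 (r 0.80). At 58 bp after it they were 0, 0.19 and 0.22, and at 70 bp before it, the farthest of the 7, they were 0.12, 0.54 and 0.52. At 6 of the 7 the lowest value among the 8 high libraries was 0 or 0.02, so the high class overlapped the low class there. The classes also overlapped at 70 bp before the member, where the lowest high library was at 0.11 and the highest low library at 0.33.

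At chromosome 28, the member at 38429580 had 7 of 36 neighbours related, with both signs. The 5 neighbours from 258 to 218 bp before it rose with it, among them the pair named above, and the 2 at 647 and 681 bp after it had r -0.41 and -0.43. The latter had medians of 0.94 in low, 0.83 in middle and 0.62 in high libraries. Around the member of chromosome 38 at 22702062, 4 of 8 neighbours had a negative r, from 22 bp before to 125 bp after. The one at 22 bp before it was at a median of 0.95 in low and 0.92 in middle libraries and at 0.59 in high ones, with values from 0 to 1 among the latter.

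On chromosome 13 the member at 46003562 had 3 of 7 neighbours related, all negative: besides the one at 92 bp, those at 611 and 715 bp before it had r -0.59 and -0.55. On chromosome 30 all 3 neighbours of 30682164 were related and positive, at 32 bp before (r 0.64), 2 bp after (r 0.84) and 32 bp after (r 0.81). The member on chromosome 31 also had 3. In all, 56 of the 70 members had 1 related neighbour beyond 1 bp, 14 had 2 or more and 6 had 3 or more. Most of the 70 members thus had a single related neighbour among those listed. Some had no more to offer, such as 103255648 on chromosome 1 with only 1 listed neighbour beyond 1 bp. Positions that met the rule were not counted as neighbours, so the length of a stretch cannot be read from these counts.

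The 6 repeat captures, which did not enter the tests, were used to read the slopes again wherever the member spanned at least 0.5 among them. They carry the numbers of libraries that were in these tests, except 1, and so repeat the measurement rather than the dogs. All 10 such pairs at 1 bp kept their sign, with a median slope size of 0.947. Beyond 1 bp, all 14 pairs with a slope size over 0.5 kept it, with a median of 0.882. Of the pairs with a slope size of 0.2 to 0.5, 12 of 14 kept the sign, and of those under 0.2, 29 of 38. The 14 pairs belong to 9 members, and 5 of them to the member on chromosome 15. The sizes did not always return: for the chromosome 13 pair at 92 bp the slope was -0.857 over the 95 libraries and -0.356 over the repeat captures, and for the chromosome 17 pair it was -0.843 and -0.526.

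The 111 related pairs kept their sign with the mean of each code prefix taken out, with the mean of each second code element taken out, without the 14 libraries and without the 2 farthest libraries. They were chosen by r in the same libraries, so a change of sign was unlikely and its absence adds little. Fewer were still called: 99 of the 111 with prefix means out, 83 with second-element means out and 97 without the 14 libraries. The neighbours' values are fractions without read counts, so how many reads stand behind any single value is unknown. Neighbours a few bases away can be read on the same DNA fragments as the member.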

How the data were processed

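The authors deposited, for each library and cytosine position, a methylation fraction. Bowtie2 2.1.0, Bismark 0.14.3, Trim Galore and the CanFam3.1 build are named in the submitters' processing notes, without their roles. With no counts or coverage in the files, depth and its precision are unknown, and no minimum could be set. Values with more than 2 decimals (1.04% of cells at the members, 0.781% of all) were treated as filled in. Library codes match no label, and no library was tied to a sample.

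The members and lists were chosen with earlier results of these data known. Values were read as stored to apply the boundaries 0.12, 0.3, 0.7 and 0.88. Partner strands came from runs of consecutive positions in the repeat table. Distances were taken from the listed coordinates. Linkage was Pearson's r squared over libraries. Neighbours were tested by 100000 permutations of the libraries (NumPy 2.4.6, SciPy 1.17.1, Python 3.11.15), adjusted over 1418 pairs. Dogs related to each other are not independent, so that these p-values treat libraries as exchangeable. The steps were checked on simulated tables of independent libraries, with neighbours of low base level and no or positive slopes. There 10 of 1200 neighbours without a slope were called. Related dogs and neighbours of high level were not simulated. Named were the longest runs, the members with most related neighbours, the largest correlation beyond 100 bp of up to 5 members, and the farthest pairs with r2 over 0.8 within 1 Mb; positions outside this rule are said to be so or are extremes of a range. Alternatives covered the boundaries, filled-in cells, values of exactly 1.0, ranks, windows and code groups. The table mapped to human probes was not used here.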

Additional observations from a re-analysis of the deposited data

Results flagged for a closer look

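In 1 of 6 numbered pairs of captures the share of members in the same class was far from the others: 96.3% (210 of 218) for the pair numbered 5, against 99.5% to 100% in the other 5. Its gap to the next pair was 0.86 of the whole range, above Dixon's 95% critical value for 6 values. Chance passes that value in about 1 of 20 groups of normally distributed values. Shares that cannot exceed 100% need not be so distributed, so that rate may not hold here. In this pair 7 members were in opposite classes, and 6 of the 21 members at exactly 1.0 in the first library were under 0.12 in the repeat.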

How the results depend on the processing

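The number of members depended on the rule's limits. Against 269 as reported, it was 179 with at least 12 libraries per class, 44 with boundaries of 0.1, 0.9 and 0.35 to 0.65, 38 with at most 6 libraries in the gaps, 564 with at most 20, and, chosen after seeing the data, 455 without the 14 libraries. It was 381 with at least 5 per class, 285 without filled-in cells and 215 without values of exactly 1.0. The median r2 within 100 bp was 0.784 by Spearman's rho and 0.862 to 0.895 under the other 4 settings, and the class agreement of numbered pairs was 97.9% (median) by the nearest of 0, 0.5 and 1. The median middle share stayed from 40.8% to 48.8%. The related neighbours numbered 79 to 128 over 8 alternatives; 83 of the 111 were called with the mean of each second code element taken out (86 in all), and 97 without the 14 libraries (98 in all). The last 2 settings and the one without members at exact 1.0 (110) were chosen after seeing the data. The 5 named pairs passed with the same sign in each alternative that tested them. No paired analysis was possible because no comparison between groups was made. Depth is unknown, gene annotation and sequence were not used here, and related dogs were not accounted for.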
